A study of Mus musculus with 14 samples.

Results

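The regulators of mitochondrial biogenesis described here were 10 genes: Ppargc1a and Ppargc1b, the nuclear factors Nrf1, Gabpa and Esrra, and Tfam, Tfb1m, Tfb2m, Polrmt and Polg, whose products act on the DNA and RNA of mitochondria. They were chosen by name and role, not by their values, and matched by Ensembl identifier to 10 of the 52550 genes in the count table. The data were RNA-seq libraries of mouse lung adenocarcinomas, 6 labelled KPY-Ctrl and 8 labelled KPY-Setd2KO. All tumors arose in mice of a mixed background carrying, among their alleles, Trp53 flox/flox and Rosa26 LSL-YFP/LSL-YFP, after a lentivirus (LentiCRISPRv2Cre) delivered Cre, Cas9 and a guide RNA to the airways. The guide was against β-galactosidase in KPY-Ctrl and against Setd2, which encodes the methyltransferase that places H3K36me3, in KPY-Setd2KO. Control tumors therefore also carried Cre, Cas9 and a guide, and both genotypes had lost Trp53 wherever Cre acted. A guide makes different indels in different cells, and the age of the mice at harvest is not given in the sources used here. The paper read YFP RNA from its sequencing of 6 and 8 such tumors and lists fewer mice than tumors for each genotype. Some tumors of each genotype therefore shared a mouse, but the labels do not name the mouse of each tumor. The tests treated tumors as independent, so p-values measure the spread between tumors and not between mice. The study's methods describe cells sorted for YFP, the mark of cells that had seen Cre, whereas the labels name cell lines.

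Mitochondrial biogenesis is driven from the nucleus. PGC-1α and PGC-1β, encoded by Ppargc1a and Ppargc1b, are coactivators without DNA binding of their own that work through factors such as NRF1, the GABP complex and ERRα, which bind the promoters of nuclear genes for respiratory chain subunits and for the mitochondrial transcription machinery. TFAM then packages and bends mitochondrial DNA, TFB2M helps the polymerase POLRMT to start transcription, TFB1M methylates the small ribosomal RNA of mitochondria, and POLG is the catalytic subunit of the polymerase that copies the mitochondrial genome.

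Because GABPA is an ETS factor that binds a GGAA core, the promoters of the regulators themselves were searched for its letters, and the matches are shown because they mark where 1 member of the set could meet the promoters of others. The search used RefSeq start sites on GRCm38.p6, from 250 bases before to 50 bases after each start, and 9 of the 10 members had such a window. The letters CCGGAAG, on either strand, occurred in 4 of these 9 members, namely Gabpa, Tfam, Polrmt and Polg, and in 8.86% of 32851 promoter windows of the genome. The NRF1 letters, GCGCA followed by any base and then GCGC, occurred in 1 member on either strand, Polrmt, and in 4.6% of all windows. The ERR letters AAGGTCA occurred in 0 members and in 4.72% of all windows. The ETS matches are printed 5′ to 3′ on the strand of the gene, with the matched letters, or their reverse complement, in capitals.
Gabpa, chr16:84835022-84835046, + strand: gggtaagtgCTTCCGGgtccctcag
Tfam, chr10:71238076-71238100, − strand: tgccgcggaCCGGAAGtccgggctt
Polrmt, chr10:79746609-79746633, − strand: ctaagagcgCTTCCGGcagtcgcag
Polg, chr7:79466296-79466320, − strand: ggacctcacCCGGAAGtccctctgc
Counted from the RefSeq start, the first matched base lay at −93 in Gabpa, −47 in Tfam, −43 in Polrmt and −38 in Polg. In the GENCODE annotation, however, the Tfam and Polg matches fell in an exon of the gene. The Gabpa match fell inside the gene but in no exon, and only the Polrmt match lay outside the gene. In Polrmt the NRF1 letters matched at 2 overlapping positions that together ran from −6 to +10, shown here in capitals.
Polrmt, chr10:79746565-79746594, − strand: gcaggcgGCGCGTGCGCGTGCGCactgcgg
These matches are descriptions of letters, and binding was not measured.

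The libraries held 27866266 to 51828846 counts in KPY-Ctrl (median 43550358) and 20072236 to 40604404 in KPY-Setd2KO (median 33616025). Log2 CPM of all genes tested correlated between tumors of 1 genotype at 0.826 to 0.985 in KPY-Ctrl and at 0.785 to 0.971 in KPY-Setd2KO. Setd2 itself had 41.8, 53.7 and 63.5 CPM (lowest, median and highest, in counts scaled to the size of each library) in KPY-Ctrl and 17.9, 30.4 and 47.3 in KPY-Setd2KO, and 6 of the 8 KPY-Setd2KO tumors lay below every KPY-Ctrl tumor (log2 fold change −0.74 ± 0.22 SE, edgeR quasi-likelihood adjusted p = 0.175). An edited transcript need not be lost, so its level is a partial check of the labels. Epithelial markers (11 genes, among them Epcam, Krt8 and Sftpc) summed to 13962 to 62356 CPM in KPY-Ctrl and 5869 to 49796 CPM in KPY-Setd2KO. Markers of leukocytes (14 genes, among them Ptprc and Cd68) summed to 585 to 9553 CPM and to 304 to 12896 CPM. The mean log2 CPM of the 14 markers, here called the leukocyte-marker score, fell into separate ranges, 8.13 to 8.89 in 7 tumors (KPY-Ctrl replicates 1, 2 and 6 and KPY-Setd2KO replicates 1 to 4) and 3.20 to 5.38 in the other 7 tumors. It differed little on average between genotypes (0.31 higher in KPY-Setd2KO, exact permutation p = 0.742, two-sided). With this score as a covariate the log2 fold change of Setd2 was −0.83 ± 0.19 (SE, edgeR adjusted p = 0.0264), and the KPY-Setd2KO tumors that overlapped the controls were all among those with the higher score. Other marker lists stayed lower, at 9.82 to 52.8 CPM for 6 endothelial, 2.79 to 85.8 CPM for 6 fibroblast, 4.12 to 19.6 CPM for 6 T and B cell, 3.61 to 144 CPM for 5 neutrophil and 62.4 to 750.5 CPM for 6 erythroid markers over the 14 tumors, and no list had a tested marker at 0 in all tumors. Between genotypes, all 6 endothelial markers (median log2 fold change 1.04), all 5 erythroid markers tested (median 1.11) and 4 of 5 neutrophil markers (median 0.68) had estimates above 0 for KPY-Setd2KO. Of these, 0 were called at an edgeR adjusted p under 0.05, with 1, 1 and 2 at an unadjusted p under 0.05, and their part in the results on the regulators was not tested. In bulk RNA of this kind, fewer cells of a type and less RNA per cell cannot be told apart.

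All 10 regulators were expressed. None had a count of 0 in any tumor, and all passed the filter on low counts, as 16836 genes did. Scaled per kilobase of annotated exon, the median level over the 14 tumors was highest for Tfb2m (8.38 CPM per kilobase), Gabpa (7.58) and Tfam (6.67), followed by Esrra (4.50), Polg (3.49), Polrmt (2.96), Tfb1m (2.20) and Nrf1 (2.00). The coactivators stood last, with Ppargc1b at 0.774 and Ppargc1a at 0.414 CPM per kilobase. The ranges of every pair of neighbours in this order overlapped. The clearest step was from Nrf1 to Ppargc1b, with Nrf1 higher in 13 of 14 tumors, whereas Tfb2m exceeded Gabpa in 8 of 14 and Tfb1m exceeded Nrf1 in 8 of 14.

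The coactivators also varied most between tumors. The highest tumor held 12.8 times the lowest for Ppargc1a and 13.3 times for Ppargc1b, against 1.56 times for Nrf1 and 1.68 times for Tfb2m. The counts behind these values ran from 22 to 552 for Ppargc1a and from 29 to 307 for Ppargc1b, so that their lowest tumors rest on few reads.

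**Figure D1:**
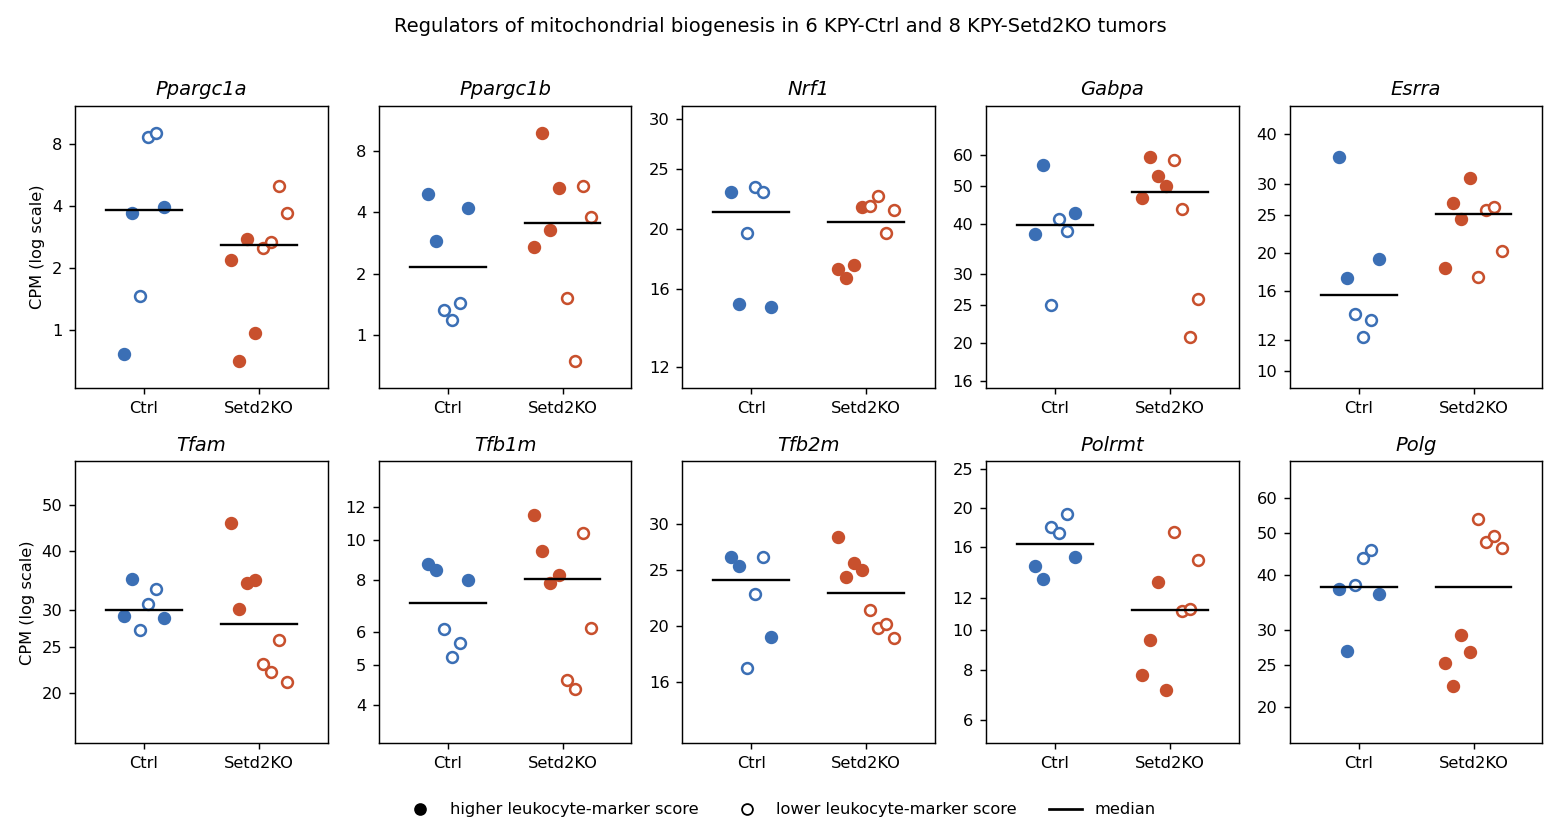
CPM (log scale) of each of the 10 regulators in every tumor, KPY-Ctrl in blue and KPY-Setd2KO in orange, with filled points for the 7 tumors of higher and open points for the 7 of lower leukocyte-marker score and a line at the median. The genotypes overlap for every gene, and for Polrmt, 6 of 8 KPY-Setd2KO tumors lie below the lowest KPY-Ctrl tumor.

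The comparison of genotypes addressed whether loss of Setd2 went with a different level of these regulators. It called 0 of the 10 regulators at an adjusted p under 0.05 (edgeR), where 0 of 16836 genes (0.0%) were called. With an unadjusted p under 0.05, 1 regulator, Polrmt, passed, lower in KPY-Setd2KO, which is 1 of 10 against 13.7% of all genes (6.8% lower and 6.93% higher). DESeq2 called 0 regulators and 3.58% of 19231 genes. With a leukocyte-marker covariate edgeR called 0 regulators and 5.53% of genes, and at an unadjusted p under 0.05 it again had 1 regulator, Polrmt, beside 24.0% of genes. The median log2 fold change over the 10 regulators was 0.0053, beside 0.030 over all genes tested, with 5 regulators above 0 and 5 below. The plot of differences between genotypes shows these values with their errors.

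**Figure D2:**
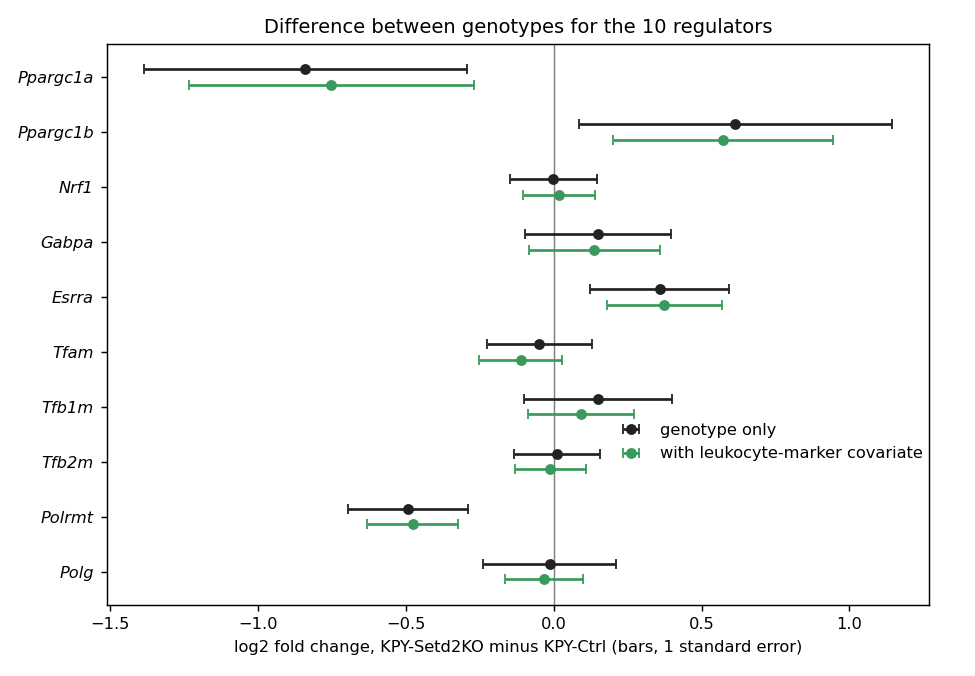
Log2 fold change of KPY-Setd2KO over KPY-Ctrl for the 10 regulators, with bars of 1 standard error, from the fit with genotype alone (black) and with a leukocyte-marker covariate (green). Polrmt, at −0.49 ± 0.20 and −0.48 ± 0.15, is the member with the smallest p in both fits, and the coactivators have the widest errors.

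Among the coactivators, Ppargc1a had 0.763, 3.84 and 9.05 CPM (lowest, median and highest) in KPY-Ctrl and 0.709, 2.60 and 5.02 CPM in KPY-Setd2KO. The genotypes overlapped almost throughout, and only KPY-Ctrl replicates 4 and 5, at 8.61 and 9.05 CPM, exceeded all KPY-Setd2KO tumors. The log2 fold change was −0.84 ± 0.55 (SE, edgeR adjusted p = 0.546), and with 1 tumor left out it ran from −1.07 to −0.54, the latter without KPY-Ctrl replicate 5. Ppargc1b had 1.19, 2.15 and 4.91 CPM in KPY-Ctrl and 0.742, 3.56 and 9.89 CPM in KPY-Setd2KO. Here 3 KPY-Setd2KO tumors lay above every KPY-Ctrl tumor and 1 lay below all of them, for a log2 fold change of 0.61 ± 0.53 (SE, edgeR adjusted p = 0.677). With 1 tumor left out it ran from 0.29, without KPY-Setd2KO replicate 2, to 0.88. The estimates of the coactivators thus pointed in opposite directions, and neither estimate reached 2 times its error.

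Among the nuclear factors, Nrf1 was the most even. It had 15.0, 21.3 and 23.3 CPM in KPY-Ctrl and 16.7, 20.6 and 22.6 CPM in KPY-Setd2KO, where all 8 KPY-Setd2KO tumors fell inside the KPY-Ctrl range, and its log2 fold change was −0.0020 ± 0.15 (SE, edgeR adjusted p = 0.998). Gabpa, which encodes the DNA-binding subunit of GABP, had 25.02, 39.9 and 56.4 CPM in KPY-Ctrl and 20.8, 48.4 and 59.1 CPM in KPY-Setd2KO (log2 fold change 0.15 ± 0.25 SE, edgeR adjusted p = 0.860). The low Gabpa values in KPY-Setd2KO came from replicates 7 and 8, at 20.8 and 25.9 CPM, while the other 6 tumors of that genotype had 43.6 CPM or more. Esrra, the orphan nuclear receptor ERRα, had 12.2, 15.6 and 34.99 CPM in KPY-Ctrl and 17.4, 25.1 and 31.0 CPM in KPY-Setd2KO. Although 4 of 6 KPY-Ctrl tumors lay below every KPY-Setd2KO tumor, KPY-Ctrl replicate 1 held the highest Esrra level of all, and the log2 fold change was 0.36 ± 0.24 (SE, edgeR adjusted p = 0.553). Without that tumor it was 0.64 (edgeR adjusted p = 0.120, unadjusted p = 0.00342), against 0.36 over all tumors. Esrra then passed unadjusted beside Polrmt, 2 regulators in place of 1. Of all genes, 2805 of 17261 passed unadjusted in that fit, against 2311 of 16836 with all tumors.

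Among the genes for mitochondrial transcription, Tfam had 27.2, 29.9 and 34.9 CPM in KPY-Ctrl and 21.1, 28.0 and 45.8 CPM in KPY-Setd2KO. The KPY-Setd2KO tumors spread to both sides of the controls, 4 below their lowest and 1 above their highest, and the log2 fold change was −0.05 ± 0.18 (SE, edgeR adjusted p = 0.941). Tfb1m had 5.24, 7.07 and 8.75 CPM in KPY-Ctrl and 4.37, 8.07 and 11.5 CPM in KPY-Setd2KO (log2 fold change 0.15 ± 0.25 SE, edgeR adjusted p = 0.862). Tfb2m had 16.9, 24.0 and 26.4 CPM in KPY-Ctrl and 19.1, 22.8 and 28.5 CPM in KPY-Setd2KO (log2 fold change 0.01 ± 0.15 SE, edgeR adjusted p = 0.983). Neither of these methyltransferase-family genes separated the genotypes.

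Polrmt, the mitochondrial RNA polymerase, had 13.4, 16.3 and 19.3 CPM in KPY-Ctrl and 7.11, 11.2 and 17.5 CPM in KPY-Setd2KO. The group means were 16.3 ± 2.29 CPM (SD, n = 6) and 11.5 ± 3.53 CPM (SD, n = 8), and 6 of 8 KPY-Setd2KO tumors were lower than any control. The log2 fold change was −0.49 ± 0.20 (SE), with an unadjusted edgeR p of 0.0292 and an adjusted p of 0.302, so that the difference did not pass the test over all genes. DESeq2 gave an adjusted p of 0.211, and the fit with a leukocyte-marker covariate gave −0.48 ± 0.15 with an adjusted p of 0.0768 (unadjusted p = 0.00742). Leaving out 1 tumor at a time kept the estimate between −0.61 and −0.41, with edgeR adjusted p of 0.171 to 0.556. The unadjusted edgeR p was above 0.05 in 5 of the 14 such fits (without KPY-Ctrl replicate 3, 4 or 5 or KPY-Setd2KO replicate 1 or 2), at up to 0.0638. Polg, by contrast, had 26.8, 37.5 and 45.6 CPM in KPY-Ctrl and 22.4, 37.6 and 53.8 CPM in KPY-Setd2KO, with 3 KPY-Setd2KO tumors below and 4 above the control range (log2 fold change −0.01 ± 0.23 SE, edgeR adjusted p = 0.987).

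Since leukocyte markers divided the tumors, the genotypes were also set side by side within each set of 7, 3 KPY-Ctrl and 4 KPY-Setd2KO tumors. Among tumors with the higher score, Polrmt had 14.4, 13.4 and 15.2 CPM in KPY-Ctrl and 7.78, 9.47, 13.1 and 7.11 CPM in KPY-Setd2KO, without overlap. Among tumors with the lower score it had 17.9, 17.4 and 19.3 CPM in KPY-Ctrl and 17.5, 11.2, 11.3 and 14.9 CPM in KPY-Setd2KO, where 3 of 4 lay below every control. Polrmt was thus lower in KPY-Setd2KO by its median in both sets.

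Polg ran in opposite directions in the sets. Its KPY-Ctrl levels were 37.1, 26.8 and 36.1 CPM with the higher score, against 25.3, 22.4, 29.2 and 26.8 CPM in KPY-Setd2KO. With the lower score they were 38.0, 43.7 and 45.6 CPM, against 53.8, 47.5, 49.2 and 46.1 CPM in KPY-Setd2KO. In the former set 3 of 4 KPY-Setd2KO tumors lay below all controls, and in the latter all 4 lay above them, a difference between sets that was not tested.

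Esrra and Tfam had no overlap of genotypes among the tumors with the lower score and did overlap among the others. With the lower score Esrra had 13.99, 12.2 and 13.5 CPM in KPY-Ctrl and 17.4, 25.7, 26.2 and 20.2 CPM in KPY-Setd2KO. Tfam had 27.2, 30.8 and 33.1 CPM in KPY-Ctrl and 23.0, 22.1, 25.8 and 21.1 CPM in KPY-Setd2KO. In all, 3 of 10 regulators (Esrra and Polg higher, Tfam lower in KPY-Setd2KO) had no overlap among the tumors with the lower score, where 26.8% of all genes had none, and 1 of 10 (Polrmt, lower) had none among the tumors with the higher score, where 13.4% of all genes had none. Both shares were near those of all genes, and over all 14 tumors 0 of 10 regulators and 0.57% of all genes had no overlap.

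**Figure D3:**
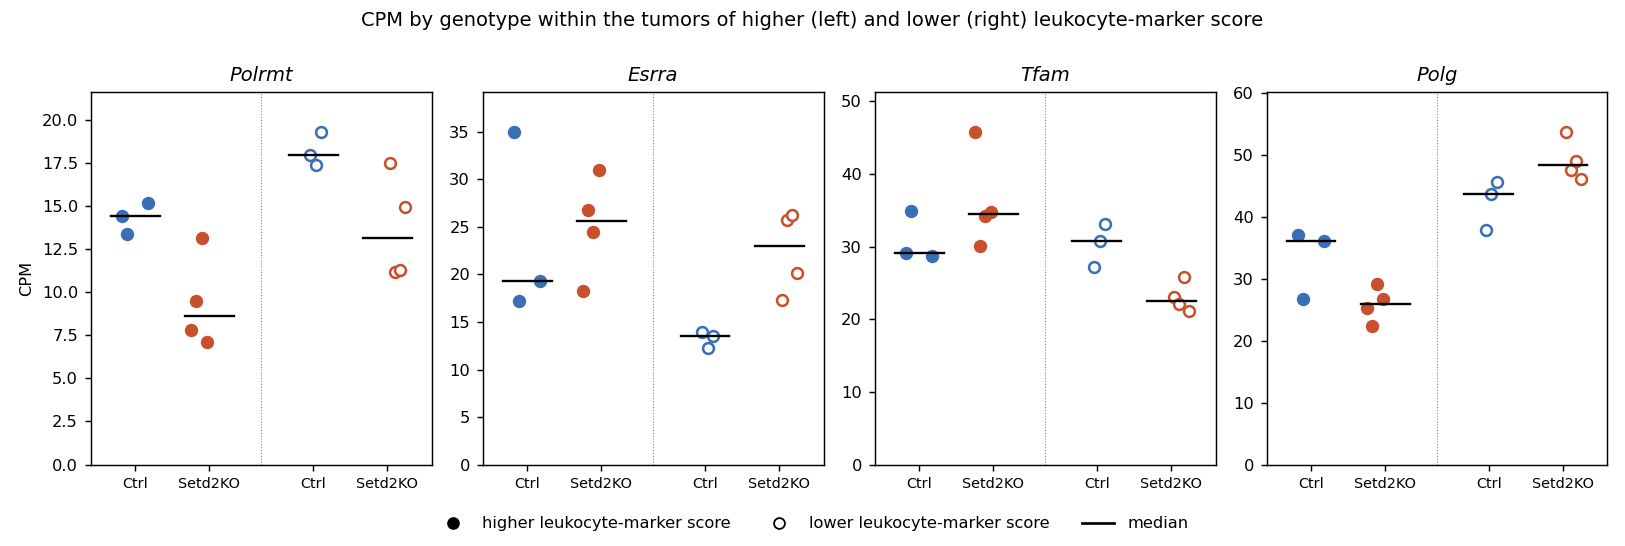
CPM of Polrmt, Esrra, Tfam and Polg in each tumor, by genotype, for the 7 tumors with the higher leukocyte-marker score (left of the dotted line, filled) and the 7 with the lower score (right, open), with lines at the medians. Polrmt medians are lower in KPY-Setd2KO on both sides, while Polg lies lower on the left (3 of 4 tumors below all controls) and higher on the right (4 of 4 above all controls).

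The regulators were also fitted against the leukocyte-marker score itself. With genotype in the model, 6 of 10 changed with the score at an edgeR adjusted p under 0.05, where 56.7% of all genes did (28.3% higher and 28.4% lower with the score). Of these, 4 were higher with more leukocyte RNA, and in order of slope they were Ppargc1b (0.33 ± 0.09 log2 per log2 unit of the score, SE, adjusted p = 0.00502), Tfb1m (0.14 ± 0.04, adjusted p = 0.00861), Esrra (0.11 ± 0.04, adjusted p = 0.0490) and Tfam (0.08 ± 0.03, adjusted p = 0.0314). The other 2 were lower, Polg (−0.15 ± 0.03, adjusted p = 0.000599) and Polrmt (−0.10 ± 0.03, adjusted p = 0.0176). Ppargc1a had the steepest negative slope, −0.23 ± 0.12, which did not pass (adjusted p = 0.112).

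Mitochondrially encoded RNA was measured as the percent of all counts from the 13 mitochondrially encoded mRNAs. This percent is a share of the library and not a rate of transcription. It was 3.87%, 6.34% and 8.42% (lowest, median and highest) in KPY-Ctrl and 3.34%, 5.88% and 14.5% in KPY-Setd2KO. The means were 6.09 ± 1.75% (SD, n = 6) and 7.33 ± 4.15% (SD, n = 8), and the mean log2 percent was 0.12 higher in KPY-Setd2KO (exact permutation p = 0.740, two-sided). The highest values belonged to KPY-Setd2KO replicates 7 and 8, at 14.5% and 11.7%, and without replicate 7 the difference was −0.045 (exact permutation p = 0.890). Replicates 7 and 8 also had the smallest libraries of all tumors, at 20072236 and 24561092 counts. The part of depth in the share was not tested. Of the 13 mRNAs, 0 were called at an edgeR adjusted p under 0.05 and all 13 had estimates above 0 (median log2 fold change 0.31), with mt-Nd2 at 0.87 ± 0.36 (SE, adjusted p = 0.306) both the largest and the one with the smallest p. These estimates include replicates 7 and 8. By median CPM, KPY-Setd2KO was lower than KPY-Ctrl for some of the 13 and higher for the others. The 2 mitochondrial rRNAs made up 0.0661% to 0.654% of counts in KPY-Ctrl and 0.0555% to 0.355% in KPY-Setd2KO, and the larger estimate of the pair was that of mt-Rnr2 (−0.51 ± 0.56 SE, edgeR adjusted p = 0.767).

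The share moved with leukocyte RNA. It was 3.34% to 8.42% (median 4.07%) in the 7 tumors with the higher leukocyte-marker score and 5.89% to 14.5% (median 7.24%) in the 7 with the lower score. Of the tumors with the higher score, KPY-Ctrl replicate 6 alone, at 8.42%, exceeded 5%. The slopes on the share are therefore given with and without the score in the model. All 11 epithelial markers were called higher with the share as well (median slope 1.39 log2 units per doubling of the share), and with the score in the model all 11 slopes were above 0 (median 0.58) and 3 were called, and their part in the slopes of the regulators was not tested.

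**Figure D4:**
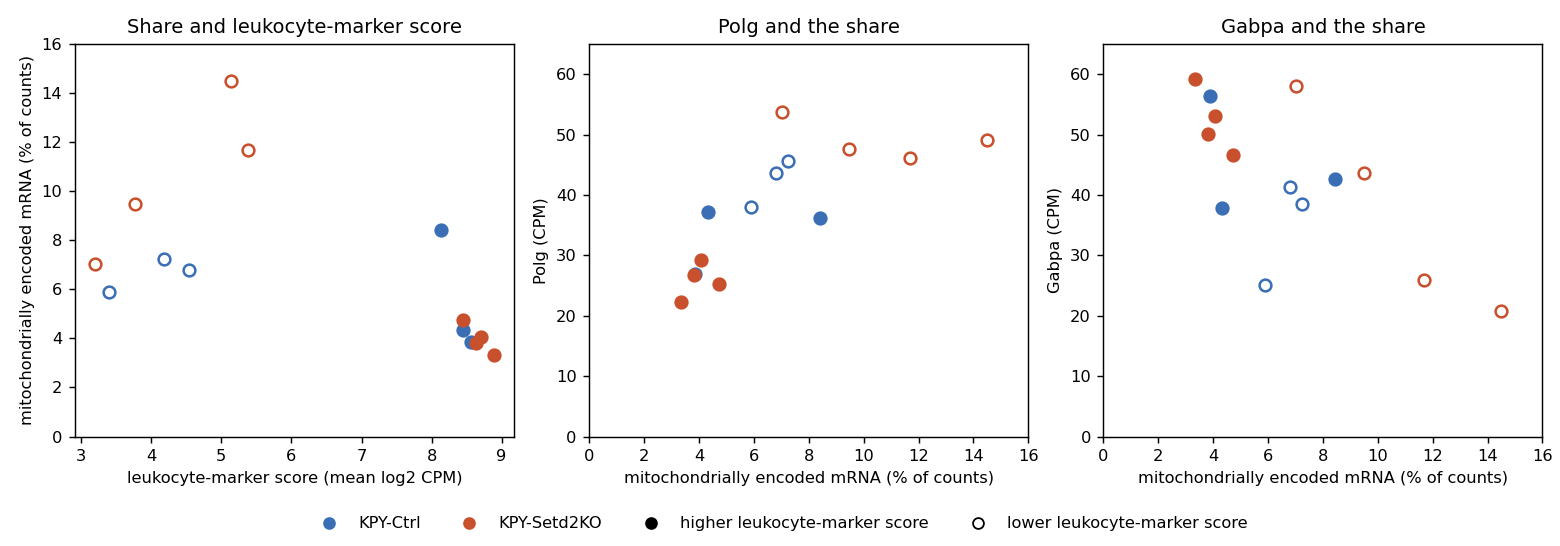
Left, percent of counts from the 13 mitochondrially encoded mRNAs against the leukocyte-marker score in each tumor. Middle and right, Polg and Gabpa CPM against that percent. Blue is KPY-Ctrl and orange KPY-Setd2KO, and filled points are the 7 tumors with the higher score, whose share is 3.34% to 8.42%, against 5.89% to 14.5% in the 7 open ones.

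With genotype in the model, 4 of 10 regulators changed with the share at an edgeR adjusted p under 0.05, near the 41.1% of 16816 genes that did (21.2% higher and 19.9% lower with the share). Polg was higher by 0.54 ± 0.12 log2 units per doubling of the share (SE, adjusted p = 0.00439) and Ppargc1a by 0.99 ± 0.37 (adjusted p = 0.0446). Gabpa was lower by 0.50 (slope −0.50 ± 0.16, adjusted p = 0.0231), and so was Tfam (−0.30 ± 0.12, adjusted p = 0.0494). In this fit Tfam, the factor that coats mitochondrial DNA, was thus lower where mitochondrial mRNA made up more of the library. Among the 7 tumors of the higher and the 7 of the lower leukocyte-marker score, its r with the share was −0.190 and −0.468. As deviations from the genotype means of each set, a choice made after seeing the data, r was 0.066 and 0.463, so the direction did not hold there. Tfb2m (−0.23 ± 0.10, adjusted p = 0.0696) and Polrmt (0.27 ± 0.15, adjusted p = 0.151), which start mitochondrial transcription together with Tfam, did not pass, nor did Ppargc1b, Nrf1, Esrra and Tfb1m (adjusted p = 0.389 to 0.446). Within KPY-Ctrl and within KPY-Setd2KO, r with the share was −0.270 and −0.842 for Gabpa (rho 0.029 and −0.833). It was −0.311 and −0.704 for Tfam, 0.678 and 0.878 for Polg and 0.547 and 0.836 for Ppargc1a. The relation of Gabpa with the share was thus weak among the controls.

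When the leukocyte-marker score entered the model as well, 0 of 10 regulators passed, while 8.46% of all genes did. At an unadjusted p under 0.05 there were 2, Gabpa (−0.55 ± 0.20, unadjusted p = 0.0178, edgeR adjusted p = 0.104) and Polg (0.31 ± 0.11, unadjusted p = 0.0176, edgeR adjusted p = 0.104), beside 26.5% of all genes. Gabpa kept its slope, and that of Polg was 0.31 in place of 0.54. The slope of Ppargc1a was 0.88 ± 0.50 in place of 0.99 (edgeR adjusted p = 0.284). That of Tfam was −0.18 ± 0.15 in place of −0.30 (edgeR adjusted p = 0.448), and Tfb2m and Polrmt also kept their direction. Ppargc1b, Esrra and Tfb1m went from slopes below 0 to slopes above 0, and Nrf1 the other way, with an adjusted p of 0.389 or more in both fits. Leaving out 1 tumor at a time was done only in the fit without the score, so it does not bear on the fit with it. There the call for Polg held in 14 of 14 fits. Gabpa kept its call in 10, Ppargc1a in 4 and Tfam in 3 of the 14 fits. Tfb1m was called without KPY-Setd2KO replicate 7 (slope −0.48, edgeR adjusted p = 0.0492) and Tfb2m without KPY-Ctrl replicate 3 (slope −0.23, edgeR adjusted p = 0.0419), and the number of regulators called was 1 without KPY-Ctrl replicate 2, KPY-Setd2KO replicate 2 or KPY-Setd2KO replicate 8, and 2 without KPY-Ctrl replicate 4 or 5 or KPY-Setd2KO replicate 4, 5, 6 or 7, against 4 over all tumors.

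**Figure D5:**
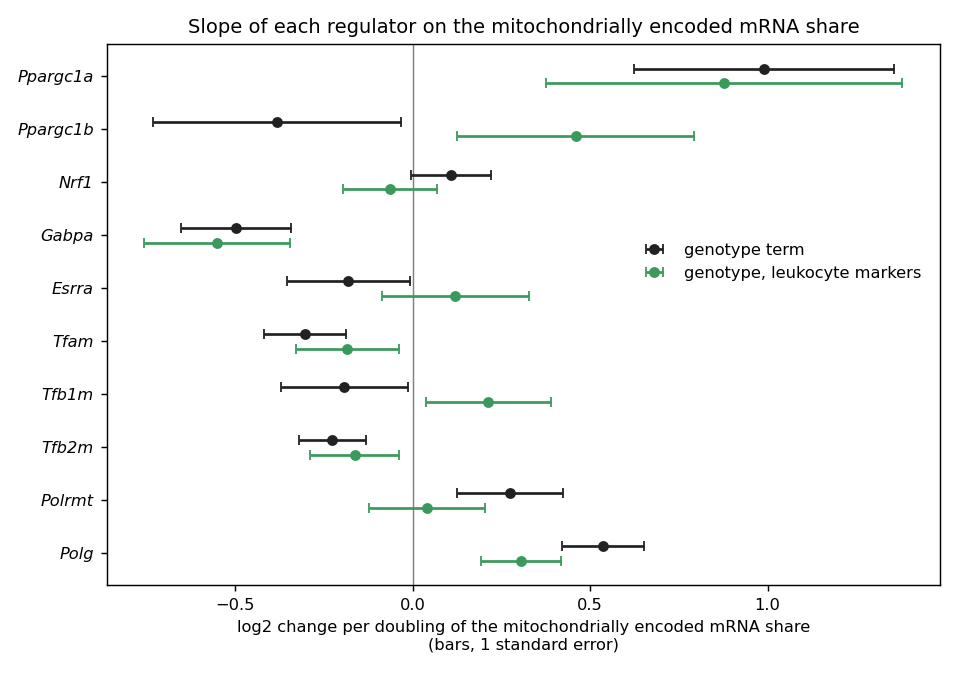
Log2 change of each regulator per doubling of the mitochondrially encoded mRNA share, with bars of 1 standard error, from the fit with genotype (black) and with genotype and the leukocyte-marker score (green). Ppargc1a (0.99 and 0.88), Polg (0.54 and 0.31), Gabpa (−0.50 and −0.55) and Tfam (−0.30 and −0.18) keep their direction. So do Tfb2m (−0.23 and −0.16) and Polrmt (0.27 and 0.04), and Ppargc1b, Nrf1, Esrra and Tfb1m change theirs.

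Because the tumors formed 2 clusters, correlations with the share were taken within each set of 7. Among the tumors with the lower leukocyte-marker score, Esrra had a Pearson r of 0.834 with the share (exact permutation p = 0.0274, and Spearman rho = 0.786, exact permutation p = 0.0480), and r was 0.830 without the 2 tumors farthest from the median share. Polrmt had r = −0.795 (exact permutation p = 0.0389) and rho = −0.643 (exact permutation p = 0.139) in the same tumors, and r = −0.845 without those 2. These correlations carry no genotype term, and in this set the genotypes did not overlap in Esrra and the highest shares were those of KPY-Setd2KO tumors, so that genotype and share cannot be told apart there. Taken as deviations from the genotype means of the set, a choice made after seeing the data, r was 0.605 for Esrra and −0.578 for Polrmt. Adjusted over the 16808 genes, the p for r was 0.152 for Esrra and 0.174 for Polrmt, and 0 genes passed in either set, with 2338 and 4348 genes at an unadjusted p under 0.05 among the tumors with the higher and the lower score. Among the tumors with the higher score, Gabpa had r = −0.590 (exact permutation p = 0.161) and rho = −0.786 (exact permutation p = 0.0480), with r = −0.554 without the 2 tumors farthest from the median share. Polg had r = 0.662 (exact permutation p = 0.0938) there and 0.073 without those 2, so that its relation rests on them, and every regulator had an adjusted p of 0.399 or more for r. Gabpa and Polg had r = −0.517 (exact permutation p = 0.234) and r = 0.444 (exact permutation p = 0.328) among the tumors with the lower score. Without the 2 farthest tumors these were 0.508 for Gabpa, of the opposite sign, and 0.534 for Polg. The genotypes did not overlap in Polg in this set either. As deviations from the genotype means of the set, r was −0.750 for Gabpa and −0.191 for Polg, the latter of the opposite sign. Among the tumors with the higher score these deviations gave −0.462 for Gabpa and 0.517 for Polg.

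Taken as deviations from the genotype means over the 14 tumors, which share the division by leukocyte RNA, log2 CPM of Ppargc1b and Tfb1m (r = 0.788), of Tfam and Tfb2m (r = 0.781) and of Polrmt and Polg (r = 0.746) ran together, while Tfam and Polg ran against each other (r = −0.755), as did Tfb1m and Polrmt (r = −0.677) and Ppargc1a and Esrra (r = −0.633). Of the other members, Polg was the most like Ppargc1a (r = 0.534) and the least like Ppargc1b (r = −0.549). Of 16783 other genes, the one most like each member was Rabgap1l for Ppargc1a (r = 0.955), Gm47415 for Ppargc1b (0.934), Rbm14 for Nrf1 (0.898), Smc3 for Gabpa (0.951), Ltb for Esrra (0.952), Vbp1 for Tfam (0.945), Gm10012 for Tfb1m (0.950), Cldnd1 for Tfb2m (0.914), Rhebl1 for Polrmt (0.941) and Herc2 for Polg (0.975). No gene was nearest to more than 1 regulator.

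The wider pathway gave the same count as the members, with 0 genes called between genotypes at an edgeR adjusted p under 0.05 in each of 6 lists. Of 22 tested genes among other regulators, such as the GABP partner subunits, PPARs, sirtuins and AMPK subunits, 1 was higher and 5 were lower in KPY-Setd2KO at an unadjusted p under 0.05 (median log2 fold change −0.12), beside 6.93% of all genes higher and 6.8% lower. The smallest p belonged to Gabpb2, a partner subunit of Gabpa, at 32.3 ± 7.51 CPM in KPY-Ctrl and 24.0 ± 3.48 CPM in KPY-Setd2KO (SD, log2 fold change −0.43 ± 0.16 SE, edgeR adjusted p = 0.251). The largest estimate was that of Ppara (−1.14 ± 0.78, adjusted p = 0.572), which had a median of 0.674 CPM or less in each genotype. Gabpa and Gabpb2 thus had estimates of opposite sign, 0.15 and −0.43.

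Genes for mitochondrial RNA synthesis and processing, the list nearest in function to Polrmt, had most of their small p-values on the lower side. Of 21 tested, 0 were higher and 6 lower in KPY-Setd2KO at an unadjusted p under 0.05, beside 6.8% of all genes lower, and the median log2 fold change was −0.22. Supv3l1, an RNA helicase of the mitochondrial degradosome, had 16.1, 19.4 and 21.5 CPM (lowest, median and highest) in KPY-Ctrl and 9.76, 14.4 and 15.996 CPM in KPY-Setd2KO, without overlap (log2 fold change −0.49 ± 0.15 SE, edgeR adjusted p = 0.170). Mterf2, a member of the mitochondrial termination factor family, had the largest estimate (−0.93 ± 0.34, adjusted p = 0.245), at 3.15 ± 0.858 CPM in KPY-Ctrl and 1.65 ± 0.669 CPM in KPY-Setd2KO. When leukocyte markers were a covariate, 7 of the 21 were lower and 0 higher at an unadjusted p under 0.05, beside 24.0% of all genes in either direction, and Supv3l1 was called (−0.48, edgeR adjusted p = 0.0474), beside 5.53% of all genes.

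Of 18 genes for mitochondrial DNA maintenance, the partners of Polg, 1 was higher and 3 were lower at an unadjusted p under 0.05 (median log2 fold change 0.04), beside 6.93% and 6.8% of all genes. Lig3, the ligase that seals mitochondrial DNA, had the smallest p (−0.54 ± 0.20, edgeR adjusted p = 0.256) and Dna2, a nuclease and helicase, the largest estimate (−0.67 ± 0.53, adjusted p = 0.636). Textbook targets of the nuclear factors (14 genes, such as Cycs and Cpt1b), protein import (15) and fusion and fission (8) each had 0 genes at an unadjusted p under 0.05, with median log2 fold changes of −0.09, 0.14 and 0.04. Their genes with the smallest p were Cpt1b, the muscle form of carnitine palmitoyltransferase, at −1.29 ± 0.64 (edgeR adjusted p = 0.394), Timm50 of the inner membrane translocase at −0.27 ± 0.13 (adjusted p = 0.369) and Fis1, a fission adaptor, at 0.34 ± 0.21 (adjusted p = 0.505), and the largest import estimate was that of Tomm7 (0.41 ± 0.22, adjusted p = 0.429). With the leukocyte-marker covariate, Lig3 (−0.49, edgeR adjusted p = 0.0319) and Dna2 (−0.88, adjusted p = 0.0184) were called lower. Outside the naming rule and chosen after their values were seen, Hcfc1 (−0.65, edgeR adjusted p = 0.0148) and Mtor (−0.75, adjusted p = 0.0181) of the other regulators were called lower in that fit and Cox5b of the textbook targets higher (0.49, adjusted p = 0.0485). With Supv3l1 these 6 genes were the calls in the 6 lists, where 5.53% of all genes were called. Cpt1b was expressed at a median of 0.685 CPM in KPY-Ctrl and 0.251 CPM in KPY-Setd2KO, so that its estimate rests on few reads.

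Some levels could include reads of a neighbour, since exons of Gabpa overlap those of Atp5j, exons of Esrra those of Trmt112, exons of Tfb1m those of Tiam2 and exons of Polg those of Fanci, each on the opposite strand. On GRCm38 with GENCODE M21 names, the members lay at chr5:51454250-51567726 (Ppargc1a), chr18:61298136-61400431 (Ppargc1b), chr6:30047988-30153458 (Nrf1), chr16:84834925-84863779 (Gabpa), chr19:6910977-6921813 (Esrra), chr10:71225464-71238280 (Tfam), chr17:3519256-3557781 (Tfb1m), chr1:179528055-179546267 (Tfb2m), chr10:79736123-79746581 (Polrmt) and chr7:79446231-79466362 (Polg). Nrf1 and Gabpa were on the + strand and the other 8 on the − strand.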

How the data were processed

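RNA-seq libraries of 14 tumors, grouped by the labels into KPY-Ctrl and KPY-Setd2KO, were analysed. The authors quantified the reads with Salmon 0.8.2 against GRCm38.p5 and deposited estimated counts per gene, not normalized. How transcripts were summed to genes is not given in the sources used here. The study's methods describe sorted tumor cells, whereas the labels name cell lines and another extraction and library kit, and which holds was not tested. The strand setting is not given. Values were whole numbers, except that 3 abundant genes were written to 3 significant digits. Symbols came from GENCODE M21 on GRCm38 for 52403 of 52550 identifiers, and promoter sequence from RefSeq (GRCm38.p6).

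Genotypes were compared over all genes in edgeR 4.0.16 (R 4.3.3; filterByExpr, TMM, robust quasi-likelihood F test, Benjamini-Hochberg), called at an adjusted p under 0.05, with DESeq2 1.42.0 as an alternative. DESeq2 gives adjusted p to 19231 genes under its own filter. CPM use TMM-scaled library sizes, and scores are means of log2 CPM with a prior count of 2. Slopes on the log2 share used library sizes without mitochondrially encoded genes and a genotype term. Exact permutation tests used SciPy 1.17.1. The scripts were tested on simulated data. The members and lists were chosen with earlier results of these data known, and the leukocyte-marker list stands for RNA already known to vary between these tumors. Genes were named by rule, namely the members, Setd2, the lowest p and the largest fold change of every list, and each member's most alike gene. Alternatives were other size factors and filters, DESeq2, a leukocyte covariate, a replicate block and leaving out each tumor. Deviations of same-numbered tumors from their genotype means correlated at −0.664 to 0.657. The correlations were above 0 for numbers 1, 2 and 5, whose tumors fell in the same leukocyte-marker set. They were below 0 for 3, 4 and 6, whose tumors fell in different sets. Whether the numbers pair tumors can therefore not be told from them. 1 further allele that all tumors share is not reported here.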

Additional observations from a re-analysis of the deposited data

How the results depend on the processing

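Between genotypes, 0 regulators were called under 8 other settings and with any 1 tumor left out. Over all genes the count of 0 became 688 with DESeq2 and 931 with the leukocyte-marker covariate, and 0 to 1 with a tumor left out, while for the genes of the other pathway lists it became 1 with DESeq2, 6 with the covariate and 0 with any tumor left out. The causes were not tested. At an unadjusted p under 0.05 the edgeR count over all genes was 2311. Near-zero estimates changed sign, Nrf1 to 0.018 and Tfb2m to −0.012 with the covariate, Tfb1m to −0.0042 and Tfb2m to −0.15 with library size only, and Tfb2m to −0.037 without a filter. With a tumor left out, estimates ran from −0.075 to 0.045 for Nrf1, −0.17 to 0.0075 for Tfam, −0.067 to 0.058 for Tfb2m, −0.11 to 0.068 for Polg, 0.040 (without KPY-Ctrl replicate 3) to 0.27 for Gabpa and 0.050 (without KPY-Setd2KO replicate 1) to 0.24 for Tfb1m. The difference in log2 share ran from −0.045 to 0.26, with exact permutation p of 0.477 to 0.998, and was −0.22 without KPY-Setd2KO replicates 7 and 8 together (exact permutation p = 0.470, chosen after seeing the data).

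For the slopes on the share, the 4 regulators called became 2 without a genotype term, 0 with the leukocyte-marker covariate, and 1 to 4 with a tumor left out, and 6907 genes became 1423 with the covariate and 4734 to 8320 with a tumor left out. With the covariate the slopes reversed to 0.46 for Ppargc1b, −0.064 for Nrf1, 0.12 for Esrra and 0.21 for Tfb1m. Tfam lost its call with RLE factors (adjusted p = 0.051) and with at least 10 counts in every tumor (adjusted p = 0.070).

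Whether the replicate numbers pair tumors could not be told. With a replicate block, which can use only the numbers both genotypes share, 0 genes and 0 regulators were called between genotypes, Tfam moved to 0.0061, 4309 genes and 1 regulator (Ppargc1b, slope −3.78, adjusted p = 0.0472) were called on the share. The lowest counts were 22 for Ppargc1a and 29 for Ppargc1b.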
